A study of Homo sapiens with 15 samples.

Results

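Metallothioneins and 2 genes of the zinc response were followed through 15 RNA sequencing libraries of the MHCC-97H cell line, which was established from a human liver cancer. The set is 8 named rows of a table of 19143 gene rows: the metallothioneins MT1E, MT1F, MT1G, MT1M, MT1X and MT2A, the transcription factor MTF1 and the zinc exporter SLC30A1. All 8 rows were present. The metallothionein genes lie on chromosome 16, and MTF1 and SLC30A1 on chromosome 1. The first experiment held 3 libraries each of cells in an animal model, cells in a 3D model and cells in a 2D model. A second, additional round of sequencing held 3 libraries of heat-treated cells and 3 of untreated control cells, all in the 3D model. The series asked what a 3D environment changes and what heat stress does to cells in it. The labels name neither the temperature and duration of heating nor the species of the host. Replicates are labelled as biological, with no word on whether they came from separate cultures or animals, so the p-values measure the spread between these libraries.

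Metallothioneins are small, cysteine-rich proteins that bind zinc, copper and cadmium, and the liver is one of the organs that makes most of them. When free zinc rises, MTF1 binds it and attaches to metal response elements in the promoters of metallothionein genes and of SLC30A1. The metallothioneins then store the metal, and SLC30A1, which sits in the plasma membrane, moves it out of the cell. Glucocorticoids and other stress signals can raise metallothionein transcripts too.

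The stretches before the gene starts are shown for the metal response elements that they may hold. RefSeq's promoter table (build GRCh38.p14) held 4 of the 8 members, MT2A, MT1X, SLC30A1 and MTF1. MT2A was read from chr16:56608334-56608583 on the plus strand, MT1X from chr16:56682220-56682469 on the plus strand, SLC30A1 from chr1:211579162-211579411 on the minus strand and MTF1 from chr1:37859593-37859842 on the minus strand. Each sequence below is the 250 bases before the RefSeq start, 5′ to 3′ on the gene's strand, and capitals mark the metal response element core (TGCACNC or TGCGCNC, either strand).
MT2A: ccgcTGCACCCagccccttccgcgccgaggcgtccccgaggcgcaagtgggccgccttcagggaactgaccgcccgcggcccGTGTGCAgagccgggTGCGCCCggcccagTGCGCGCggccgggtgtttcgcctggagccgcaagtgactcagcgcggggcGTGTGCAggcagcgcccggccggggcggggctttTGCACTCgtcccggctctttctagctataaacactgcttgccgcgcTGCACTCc
MT1X: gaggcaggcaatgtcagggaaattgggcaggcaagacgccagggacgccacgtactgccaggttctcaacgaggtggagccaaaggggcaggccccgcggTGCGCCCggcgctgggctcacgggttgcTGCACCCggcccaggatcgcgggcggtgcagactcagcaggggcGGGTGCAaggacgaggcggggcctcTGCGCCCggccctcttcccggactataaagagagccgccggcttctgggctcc
SLC30A1: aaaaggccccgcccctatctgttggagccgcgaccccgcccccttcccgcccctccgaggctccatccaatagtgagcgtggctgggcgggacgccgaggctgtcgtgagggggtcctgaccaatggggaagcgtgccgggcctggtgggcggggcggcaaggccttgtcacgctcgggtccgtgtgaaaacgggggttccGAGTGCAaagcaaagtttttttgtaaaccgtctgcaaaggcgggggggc
MTF1: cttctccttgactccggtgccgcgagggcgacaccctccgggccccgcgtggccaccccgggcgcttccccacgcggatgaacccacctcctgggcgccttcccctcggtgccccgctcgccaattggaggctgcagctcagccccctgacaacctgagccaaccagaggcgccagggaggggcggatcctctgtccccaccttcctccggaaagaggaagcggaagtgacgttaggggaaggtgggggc
The core occurred 7 times before MT2A, 4 times before MT1X, once before SLC30A1 and 0 times before MTF1. Of 35114 promoters of the same length, 24.8% held at least 1 core and 0.37% held at least 4. The antioxidant response element core (TGANNNNGC, either strand, no overlap with the metal response cores in these promoters) occurred 2 times before MT1X, and once each before MT2A and SLC30A1, against at least 1 in 35.2% of all promoters. A pair of heat shock element units (GAANNTTC) was found before none of the 4, and in 5.78% of all promoters. A match describes the letters in the window and does not show that a factor binds there.

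**Figure D1:**
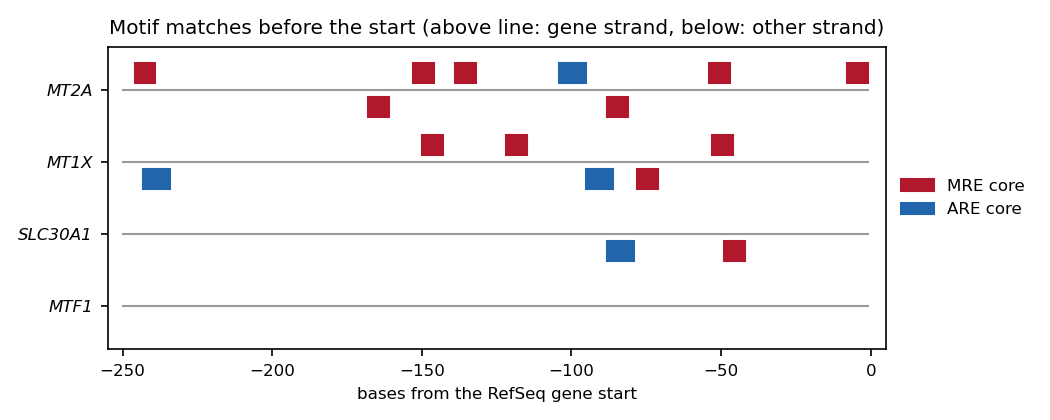
Positions of the metal response element (MRE) core and the antioxidant response element (ARE) core in the 250 bases before the RefSeq start of 4 members; the x axis is the distance from the start in bases, with matches on the gene's strand above each line and on the other strand below it. MT2A carries 7 MRE cores and MT1X 4, against 1 before SLC30A1 and 0 before MTF1.

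Total counts per library were 12605539 to 18634295, and 14218 to 15666 genes had at least 1 read. Heat replicate 1 and the first 2 replicates of the 3D group stood apart from the rest. When gene levels were set against the 2D mean, the differences in these libraries correlated in rank at 0.611 to 0.818 with the GC content of the transcript and at -0.471 to -0.42 with its length. The 12 remaining libraries lay at -0.208 to 0.228 for GC content and at -0.155 to 0.274 for length. The members lie at both ends of these scales: the main transcripts of the metallothioneins have 50.9 to 63% GC and 450 to 829 bases, MTF1 has 46.7% and 7972 bases, and SLC30A1 38% and 5474 bases. Values without those libraries, or after an offset for GC content and length, are given beside results that they move. Keratin genes of liver epithelium fitted the label, with KRT8 at 1220 to 8350 CPM (reads relative to the scaled library total) over the 15 libraries and KRT18 at 217 to 1910 CPM. These keratins made up most of the sum of the 8 liver cancer epithelium genes, 1440 to 10300 CPM. The others were low: AFP at 0.673 to 16.2 CPM, GPC3 at 0 to 0.269, EPCAM at 0.0736 to 1.35, TTR at 0.0559 to 4.25, APOA1 at 0 to 3.14 and SERPINA1 at 0.294 to 46.9 CPM. All CPM values below come from the 15 libraries scaled together, and are means ± SD over n = 3 libraries unless given per library.

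Metallothionein reads came almost wholly from 3 of the 6 genes. MT2A, MT1X and MT1G held 98.4 to 99.9% of the reads of the 6 metallothioneins in every library. MT1E had 26 reads in all 15 libraries together, MT1M 28 and MT1F 4, and none of the 3 had more than 6 reads in any library. MT1F had 0 reads in 11 libraries, where a count of 0 allows 0.145 to 0.281 CPM depending on the library. These 3 genes did not pass the filter on low counts in any comparison, so 5 of the 8 members were tested. Of the other metallothionein genes, MT1A reached at most 1.14 CPM, and MT3, the form known from brain, and MT4, the form of stratified epithelia, had 0 reads.

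Family members resemble each other closely. Of the windows of 50 bases, the read length, in the main transcript, 16% in MT1X, 14.3% in MT1G, 7.05% in MT1M, 5.34% in MT1E, 4.88% in MT2A and 3.59% in MT1F occurred exactly in an annotated transcript of another gene elsewhere, in most cases a relative or its pseudogene. MT1X also overlaps AC026461.1, a noncoding gene on the same strand, in GENCODE. With that gene counted, 45.1% of the MT1X windows were shared. How reads with several matches were counted is not given in the sources used here. The split of reads among the MT1 genes is therefore uncertain, and so are the counts of MT1X itself.

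**Figure D2:**
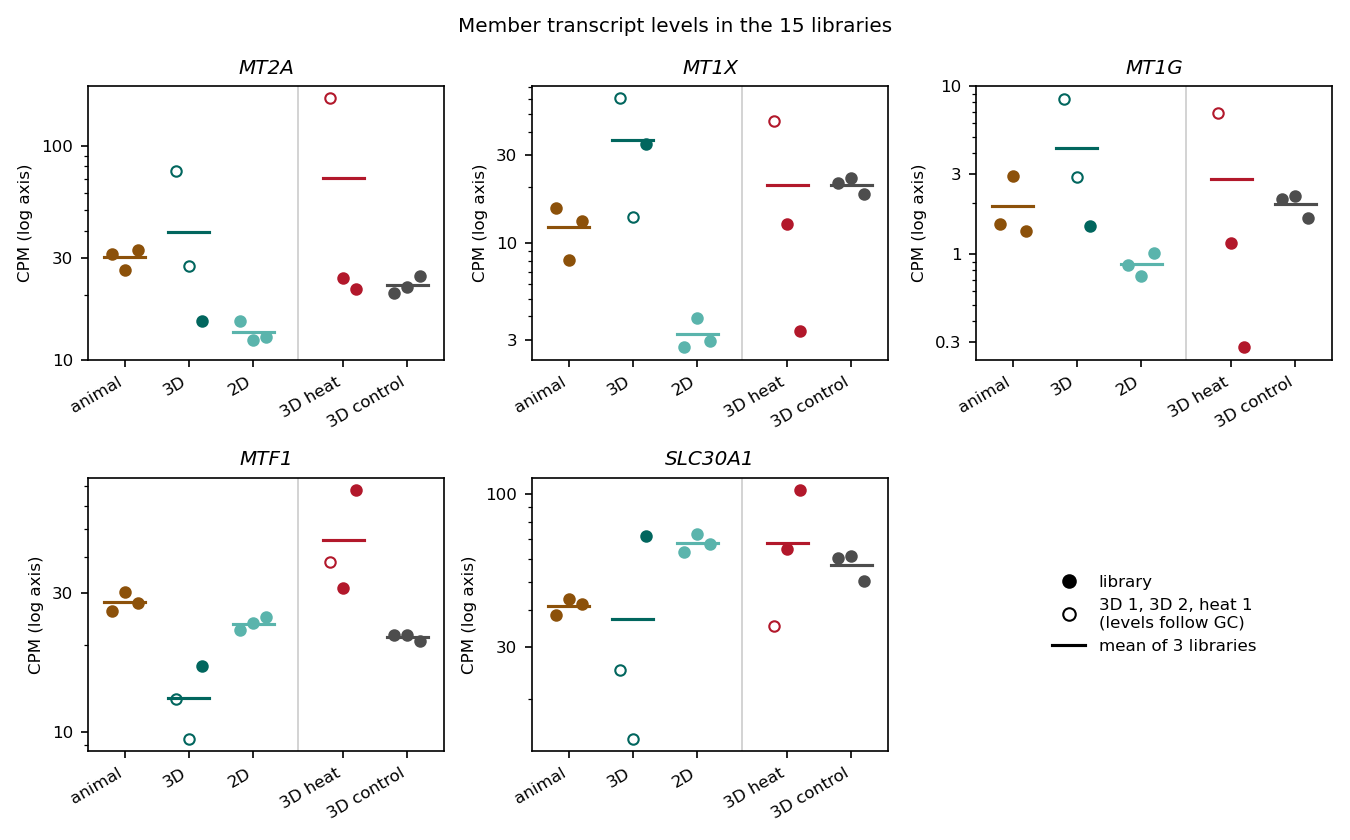
Level of the 5 tested members in each library, in CPM on a log axis; points are libraries, lines are means of 3 libraries, and open points are 3D replicates 1 and 2 and heat replicate 1. MT1X lies above the 2D libraries in every animal, 3D and control library, and MTF1 lies above the controls in every heated library.

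MT1X, MT2A and MT1G, the 3 metallothioneins with reads, were higher in 3D than in 2D, and MTF1, their activator, was lower. Of the 8 members, 3 were called higher, where 20.0% of the 12925 genes tested were, and 1 was called lower, where 12.9% were (32.9% in either direction). The groups did not overlap for MT1X, MT2A, MT1G and MTF1, as for 50.1% of all genes tested (24.8% higher and 25.3% lower). MT1X was the one call among these 4 that held under every alternative with more than 1 library of the 3D group. For each comparison with 3D, the 15 alternatives include a fit that keeps 3D replicate 3 alone. It has no spread between 3D libraries, so only its fold changes are given. Counts of calls over the 15 alternatives include this fit, whose calls are no support.

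MT1X measured 60.4, 13.8 and 34.3 CPM in 3D replicates 1, 2 and 3, against 2.73, 3.93 and 2.95 CPM in the 2D libraries. The lowest 3D library thus lay more than 3 times above the highest 2D library. MT1X rose 11-fold in 3D, with a log2 fold change of 3.46 ± 0.53 (SE) and an adjusted p of 0.00294. Without 3D replicates 1 and 2 its log2 fold change was 3.43, and with the offset it was 2.42 (adjusted p = 0.00434).

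MT2A, the most widely expressed human metallothionein, measured 75.8, 27.5 and 15.2 CPM in 3D replicates 1, 2 and 3, against 15.1, 12.4 and 12.7 CPM in 2D. Replicates 1 and 2 carried the difference, while replicate 3 lay next to the highest 2D library. The log2 fold change of MT2A was 1.5 ± 0.49 (adjusted p = 0.0442), called in 6 of 15 alternatives. It was 0.19 when 3D replicates 1 and 2 were dropped and -0.12 with the offset (adjusted p = 0.796).

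MT1G measured 8.41, 2.87 and 1.47 CPM in the 3D libraries, against 0.855, 0.743 and 1.02 CPM in 2D. These levels rest on 24 to 107 reads per library in 3D and 14 to 19 in 2D. Its log2 fold change was 2.21 ± 0.63 (adjusted p = 0.0272), called in 6 of 15 alternatives, or 0.75 on dropping 3D replicates 1 and 2 and 0.77 with the offset (adjusted p = 0.231).

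MTF1 measured 13, 9.49 and 16.9 CPM in the 3D libraries, against 22.4, 23.7 and 24.8 CPM in 2D. All 3 libraries of the 3D group were low, replicate 3 the least so. The log2 fold change of MTF1 was -0.88 ± 0.25 (adjusted p = 0.0288), -0.47 when 3D replicates 1 and 2 were left out and -0.4 with the offset (adjusted p = 0.0411). The adjusted p of MTF1 was 0.0797 to 0.0967 when a 2D library was dropped and 0.0875 when 3D replicate 1 was. SLC30A1 split the 3D group, at 25.1, 14.6 and 72 CPM against 63.4, 73.1 and 67.4 CPM in 2D. Its log2 fold change was -0.88 ± 0.51 (adjusted p = 0.2), and 0.09 both with the offset and when 3D replicates 1 and 2 were left out. Replicate 3 held the group's high value: without it the log2 fold change of SLC30A1 was -1.85 (adjusted p = 9.58e-05). That fit keeps only the 3D libraries that follow GC content. On leaving out 1 library, up to 72.2% of all genes were called in this comparison.

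The animal libraries carried more MT1X than 2D culture. Of the 8 members, 1 was called higher, where 7.78% of all genes tested were, and 0 were called lower, where 4.25% were. Called genes made up 12.0% of all in this comparison. At an unadjusted p under 0.05, 2 members passed in edgeR, as did 3432 of the 12925 genes. In DESeq2 1 member was called, as were 2437 genes. The groups did not overlap for any of the 5 tested members, as for 66.7% of all genes tested (32.8% higher and 33.8% lower). MT1X measured 15.4, 8.08 and 13.2 CPM in the animal libraries, against 2.73, 3.93 and 2.95 CPM in 2D. All animal libraries lay above all 2D libraries. MT1X rose 3.85-fold, with a log2 fold change of 1.95 ± 0.51 (adjusted p = 0.0384), which became 0.0513 to 0.15 on leaving out any animal or 2D library. With the offset the log2 fold change of MT1X was 1.35 (adjusted p = 0.0472).

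MT2A measured 31.3, 26.2 and 32.6 CPM in the animal libraries, against 15.1, 12.4 and 12.7 CPM in 2D. These groups did not overlap either, and the log2 fold change of MT2A was 1.18 ± 0.49 (adjusted p = 0.16). SLC30A1 stood the other way, at 38.7, 43.6 and 41.9 CPM against 63.4, 73.1 and 67.4 CPM in 2D, with a log2 fold change of -0.7 ± 0.5 (adjusted p = 0.436). With the offset it was -0.96 for SLC30A1 (adjusted p = 0.000387) and 0.95 for MT2A (adjusted p = 0.0513). Fitted with the animal and 2D libraries alone, where the spread of the 3D libraries does not enter, the adjusted p was 0.000194 for MT2A, 0.00036 for SLC30A1, 0.0291 for MT1G and 0.0383 for MTF1. Over the alternatives, the share of all genes called in this comparison reached 57.4%. The log2 fold changes of MT1G and MTF1 were 1.15 ± 0.63 and 0.27 ± 0.25 in the fit of 9 libraries (adjusted p = 0.288 and 0.573).

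Summed markers of hepatocytes and of other cell types stood higher in animal libraries than in 2D culture. The summed level of 7 hepatocyte genes was 238 to 435 CPM in the animal libraries against 7.01 to 8.75 CPM in 2D, with APOC3 at 0 reads in the animal libraries. Of 8 fibroblast and pericyte genes it was 163 to 456 against 64.8 to 69.2 CPM, of 9 macrophage and leukocyte genes 163 to 219 against 103 to 110 CPM, and of 6 endothelial genes 5.72 to 16.6 against 1.43 to 1.82 CPM, with PLVAP at 0 reads in the animal libraries. The 4 red blood cell genes summed to 0.658 to 6.26 CPM against 0.107 to 0.376 CPM. Beside APOC3 and PLVAP, the endothelial VWF (mean 0.0199 against 0.214 CPM) and the macrophage gene CD14 (0.102 against 0.267 CPM) were lower in the animal libraries. The fibroblast gene LUM was near level (55 against 52.1 CPM). In 3D the hepatocyte sum was 9.64 to 18.6 CPM, the fibroblast and pericyte sum 16.3 to 113 CPM and the endothelial sum 0.795 to 1.96 CPM. The macrophage and leukocyte sum was higher in 3D, at 387 to 500 CPM, than in the animal libraries, and it was mostly CD68, which averaged 154 ± 36.7 CPM in the animal libraries, 439 ± 57.9 in 3D and 101 ± 2.99 in 2D. Hepatocytes and fibroblasts also make metallothioneins. The part of host cells in the metallothionein values was not tested. In these bulk samples a change in the share of a cell type and a change in RNA per cell cannot be told apart.

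Against 3D, the animal libraries had more MTF1 and less MT1X. Of the 8 members, 1 was called higher, where 18.6% of all genes tested were, and 1 lower, where 22.9% were (41.5% in either direction). MTF1 was the 1 tested member whose groups did not overlap, as for 50.1% of all genes (27.1% higher and 23.0% lower). MTF1 measured 26.2, 30.4 and 27.8 CPM in the animal libraries, against 13, 9.49 and 16.9 CPM in 3D. MTF1 was 2.21-fold higher, with a log2 fold change of 1.14 ± 0.26 (adjusted p = 0.0085). It was called under every alternative with more than 1 library of the 3D group. Over all 15 alternatives the log2 fold changes of MTF1 were 0.67 to 1.41. MT1X had a log2 fold change of -1.51 ± 0.49 (adjusted p = 0.0364), with overlapping groups, and -1.07 with the offset (adjusted p = 0.0691). The adjusted p of MT1X was 0.149 without 3D replicate 1 and 0.0676 to 0.118 on leaving out any animal library.

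MT2A and SLC30A1 changed sign in this comparison with the 3D libraries used. The log2 fold change of MT2A was -0.32 ± 0.48 (adjusted p = 0.59), and became 0.97 on dropping 3D replicates 1 and 2. That of SLC30A1 was 0.18 ± 0.5 (adjusted p = 0.777), and became -0.81 on dropping the same libraries and 1.15 on dropping 3D replicate 3 (adjusted p = 0.00111). The offset gave 1.07 for MT2A and -1.05 for SLC30A1 (adjusted p = 0.0247 and 0.000208). MT1G had a log2 fold change of -1.07 ± 0.6 (adjusted p = 0.17), which was 0.37 on dropping 3D replicates 1 and 2 and -1.47 on dropping 3D replicate 3 (adjusted p = 0.0202). The fit without 3D replicate 3 keeps only the 3D libraries that follow GC content. On leaving out 1 library, up to 77% of all genes were called in this comparison.

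**Figure D3:**
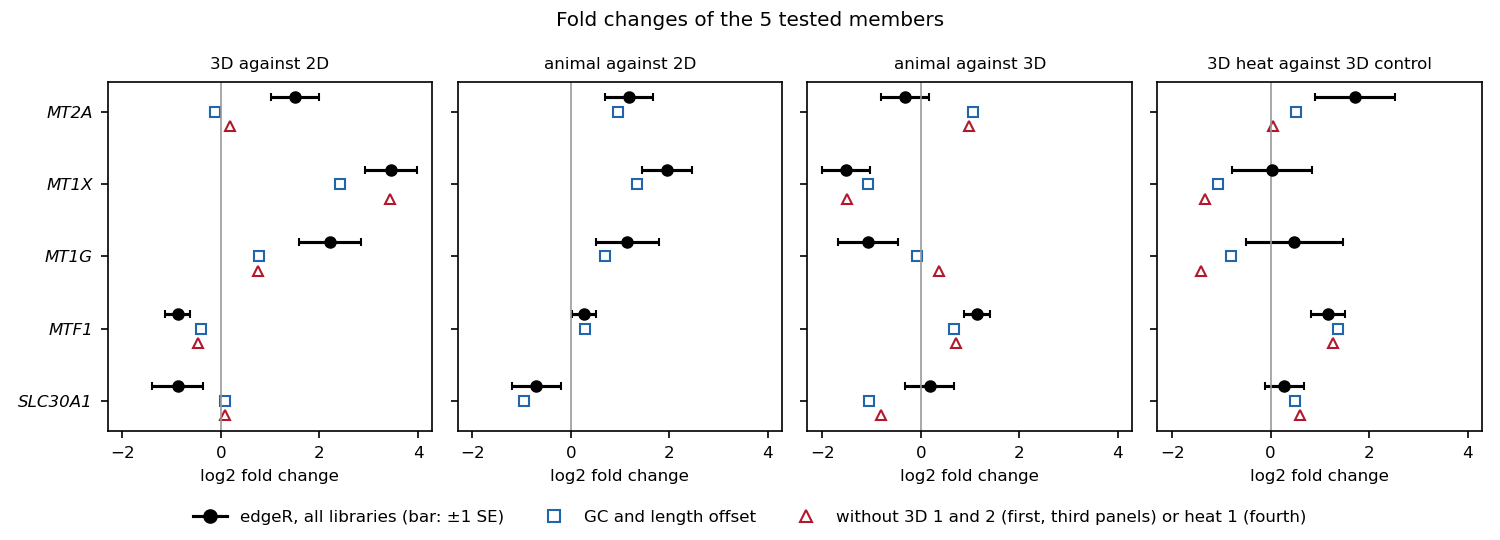
Log2 fold changes of the 5 tested members in the 4 comparisons; filled circles are edgeR estimates with ±1 SE, squares the same fit with an offset for GC content and length, triangles the fit that drops 3D replicates 1 and 2, or heat replicate 1 in the heat comparison. MT1X in 3D against 2D stays between 2.42 and 3.46 in all 3 fits, and MT2A lies at 1.5, -0.12 and 0.19.

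With heat, MTF1 stood above the controls in every library, and the metallothioneins differed between the heated libraries themselves. The inducible chaperone HSPA1A, a check of the labels, measured 23900, 1300 and 15300 CPM in heat replicates 1, 2 and 3, against 346 to 370 CPM in the controls. HSPA1A has a near-identical copy, HSPA1B, so its own share of these reads is uncertain. Of the 8 members, 0 were called in either direction, where 0.00792% of the 12627 genes tested were called higher and 0.0158% lower (0.0238% in all). At an unadjusted p under 0.05, 1 member passed in edgeR, as did 2628 of the 12627 genes. In DESeq2 1 member was called, as were 1541 genes. The member was MTF1 in both.

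MTF1 measured 38.4, 31.3 and 68.1 CPM in heat replicates 1, 2 and 3, against 21.5, 21.5 and 20.6 CPM in the controls. It was higher in 3 of 3 heated libraries, with heat replicate 3 highest, and was the 1 tested member with groups that did not overlap, as for 36.7% of all genes (16.5% higher and 20.2% lower). Its log2 fold change was 1.16 ± 0.34 (adjusted p = 0.145), 1.26 without heat replicate 1 (adjusted p = 0.0362) and 1.37 with the offset (adjusted p = 0.0328). In DESeq2 the adjusted p of MTF1 was 0.0249, and over all 13 alternatives it was 0.0242 to 0.483.

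Among the metallothioneins, heat replicate 1 held the highest values. MT2A measured 167, 24.1 and 21.4 CPM in heat replicates 1, 2 and 3, against 20.5, 21.9 and 24.7 CPM in the controls. Heat replicate 1 alone stood out, and the other 2 heated libraries lay within the range of the controls. Its log2 fold change was 1.71 ± 0.82 (adjusted p = 0.281), and 0.05 without heat replicate 1 (adjusted p = 0.781).

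MT1X measured 45.6, 12.7 and 3.35 CPM in the heated libraries, against 21, 22.4 and 18.4 CPM in the controls. Heat replicate 1 was above all controls, and heat replicates 2 and 3 were below all of them, replicate 3 at the level of 2D culture. The log2 fold change of MT1X was 0.03 ± 0.81 (adjusted p = 0.986), and -1.33 without heat replicate 1 (adjusted p = 0.0959). MT1G followed the same order, at 6.92, 1.16 and 0.279 CPM against 2.12, 2.23 and 1.64 CPM in the controls, with 74, 24 and 5 reads in the heated libraries. Its log2 fold change was 0.48 ± 0.99 (adjusted p = 0.806), and -1.41 without heat replicate 1 (adjusted p = 0.101). SLC30A1 ran opposite to that order, at 35.4, 64.8 and 103 CPM in the heated libraries against 60.2, 61.3 and 50.5 CPM in the controls, with a log2 fold change of 0.28 ± 0.4 (adjusted p = 0.708), or 0.5 with the offset (adjusted p = 0.156).

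The balance between MT1X and MT2A was followed as well, since a share of reads within a library does not depend on its scaling; this measure was chosen after the values were seen. MT1X made up 44.4, 33.3 and 69.3% of the MT1X and MT2A reads in 3D replicates 1, 2 and 3, against 15.3, 24 and 18.9% in 2D. Every 3D library had a higher share than every 2D library. The means were 49 ± 18.4% in 3D and 19.4 ± 4.4% in 2D, a difference of 29.6 points (2-sided exact permutation test, p = 0.1, the smallest that 3 against 3 libraries can give).

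With heat the share stood lower in every library. It was 21.5, 34.5 and 13.5% in heat replicates 1, 2 and 3, against 50.6, 50.5 and 42.7% in the controls. The means were 23.2 ± 10.6% with heat and 47.9 ± 4.51% in the controls, a difference of -24.8 points (exact permutation test, p = 0.1). In the animal libraries it was 33, 23.6 and 28.8%, with a mean of 28.5 ± 4.74%, which was -20.5 points from 3D (exact permutation test, p = 0.1) and 9.06 points from 2D (p = 0.2). Adjusted over the 4 comparisons the p-values were 0.133, 0.133, 0.133 and 0.2. With 3 libraries per group this test cannot give a p below 0.1, which is above the threshold for a call. None of the 4 comparisons could pass whatever the shares were, so the test does not decide whether the shares differ. The Wilson 95% interval of a single library was 19.8 to 23.2% for heat replicate 1 and 47 to 54% for control replicate 2, and covers counting error only. The transcripts differ in GC content, 50.9% for MT1X and 63% for MT2A, and the 3 libraries that follow GC content have shares of 33.3 to 44.4% in 3D and 21.5% with heat. What GC content contributes to the shares was not tested. Leaving out any 1 library kept the direction in all 4 comparisons. Where the shares do not overlap, in all but animal against 2D, this could not have come out otherwise.

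**Figure D4:**
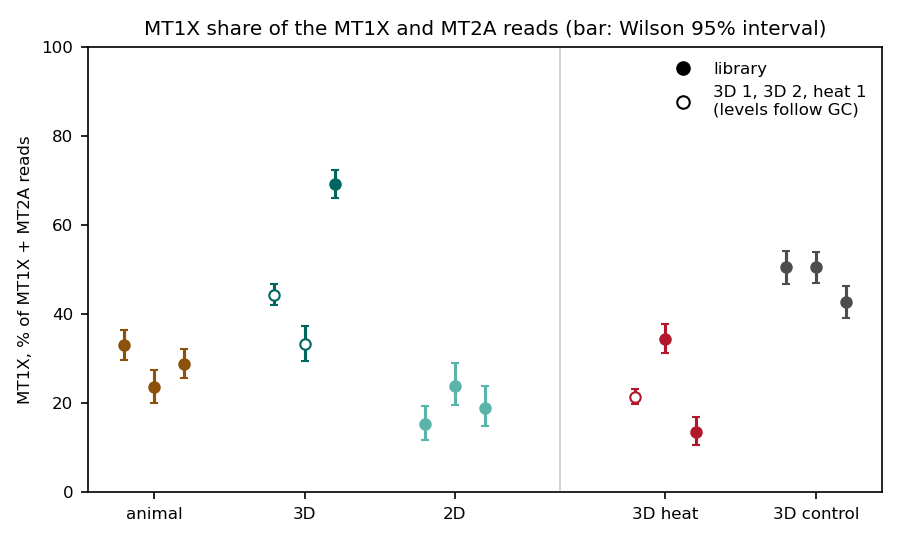
MT1X reads as a percentage of MT1X and MT2A reads in each library, with Wilson 95% intervals; open points are 3D replicates 1 and 2 and heat replicate 1. The 3D libraries lie at 33.3 to 69.3% against 15.3 to 24% in 2D, and the heated libraries at 13.5 to 34.5% against 42.7 to 50.6% in the controls.

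Across the 5 groups MT1X had its highest mean in 3D, at 36.2 ± 23.4 CPM, followed by the 3D controls at 20.6 ± 2.02, heat at 20.5 ± 22.2, animal at 12.2 ± 3.76 and 2D at 3.2 ± 0.639 CPM. The ranges of 3D, heat and control overlapped, and the heated libraries overlapped every group. Animal libraries lay wholly below the controls and wholly above 2D. MT2A averaged 70.7 ± 83 CPM with heat, 39.5 ± 32 in 3D, 30 ± 3.38 in the animal model, 22.4 ± 2.11 in the controls and 13.4 ± 1.5 in 2D. For MT2A the animal libraries, at 26.2 to 32.6 CPM, stood wholly above the controls, at 20.5 to 24.7 CPM. MTF1 had the order heat, animal, 2D, control and 3D, with no overlap between neighbours. In the 4 comparisons 36.7 to 66.7% of all genes tested had groups without overlap. The share was not taken for pairs of groups across the 2 rounds. Round and group cannot be told apart where the 3D controls are set beside the first experiment.

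Per kilobase of main transcript, the order of the 2 leading metallothioneins differed between groups. MT2A stood above MT1X with heat (89.9 against 45.6 CPM per kilobase), in the animal model (38.2 against 27.1) and in 2D (17 against 7.11). MT1X stood above MT2A in 3D (80.4 against 50.3) and in the 3D controls (45.8 against 28.5). In 3D replicate 2 the order was the other way, with MT2A above MT1X. On the same scale, in the controls, SLC30A1 lay at 10.5, MT1G at 3.18 and MTF1 at 2.66 CPM per kilobase. Before division by length, the mean CPM of MT2A was above that of MT1X in all 5 groups. It was 39.5 against 36.2 in 3D and 22.4 against 20.6 in the controls. The order per kilobase in those groups thus rests on the lengths taken, 786 bases for MT2A and 450 for MT1X.

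Other genes of metal handling were taken from pathway lists. Of all genes tested, 20.0% were called higher and 12.9% lower in 3D against 2D. The shares were 7.78% and 4.25% in animal against 2D, and 18.6% and 22.9% in animal against 3D. They belong to the fit without the offset. List counts with the offset have no such share beside them and are given as a description. Zinc importers of the SLC39 family had 6 of 12 tested genes higher and 1 lower in 3D than in 2D, with a median log2 fold change of 0.72, against 0.03 over all genes. The leading ones were SLC39A13 at 3.19-fold, SLC39A11 at 2.46-fold, SLC39A5 at 9.69-fold and SLC39A7, which releases zinc from the endoplasmic reticulum, at 1.86-fold (adjusted p = 0.00185, 0.00264, 0.00635 and 0.0103). The single fall, named after its value was seen, was in SLC39A8, an importer of zinc and manganese, whose log2 fold change was -1.52 ± 0.49 (adjusted p = 0.042). With the offset 4 were higher and 2 lower, with a median of 0.32. The log2 fold change of SLC39A13 was then 0.69, against 1.67 without it, and SLC39A7 was no longer called (0.39, adjusted p = 0.0875).

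In the animal libraries against 2D, SLC39A5, an importer of the basolateral membrane, was the 1 called among 12 importers (with the offset SLC39A3 and SLC39A14 were also called, both lower), at 5.7 ± 1.54 against 0.16 ± 0.0525 CPM (34.4-fold, adjusted p = 0.00168). Against 3D, 3 importers were higher and 5 lower in the animal libraries, with a median of -0.34, against 0.1 over all genes. By adjusted p SLC39A13 led with a log2 fold change of -1.48 and SLC39A11 with -1.08, followed by SLC39A4, the importer mutated in acrodermatitis enteropathica, with -2.09 and SLC39A8 with 2.4 (adjusted p = 0.00185, 0.0035, 0.00636 and 0.00657). With the offset 2 were higher and 2 lower, with a median of -0.06. SLC39A13 was then at -0.45 (adjusted p = 0.0207), SLC39A8 at 1.81 (adjusted p = 0.00139), and SLC39A4 was no longer called (-0.69, adjusted p = 0.0636).

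The zinc exporters beside SLC30A1 gave few calls. Of 5 tested SLC30 genes, 0 were called in 3D against 2D, with a median log2 fold change of -0.87 and of 0.09 with the offset, against 0.03 over all genes. In animal against 2D 0 were called, with a median of 0.35 and of 0.06 with the offset. SLC30A7, which loads zinc into the Golgi, was called higher in animal against 3D (log2 fold change 1.47, adjusted p = 0.043), and stood at -0.02 with the offset (adjusted p = 0.942).

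Among copper genes, metallothioneins' other metal, 3 of 7 were higher in 3D than in 2D, where 20.0% of all genes tested were. The median was 0.8, against 0.03 over all genes. Those called were the superoxide dismutase chaperone CCS (3.09-fold, adjusted p = 0.00394), the copper chaperone ATOX1 (2.94-fold, adjusted p = 0.0165) and COX17, which serves cytochrome oxidase (1.58-fold, adjusted p = 0.0424). With the offset the log2 fold changes were 0.39 for CCS, -0.05 for ATOX1 and 0.6 for COX17 (adjusted p = 0.073, 0.83 and 0.0398). In the animal libraries the copper importer SLC31A1 was lower than in 2D (1.63-fold, adjusted p = 0.0457), the 1 call among 7 (with the offset ATP7A and ATOX1 were also lower). Against 3D, 4 of 7 were lower there, CCS, ATOX1, COMMD1 and the exporter ATP7B, where 22.9% of all genes tested were. The median was -1.2, against 0.1 over all genes. The log2 fold change of CCS was -1.32, or -0.14 with the offset (adjusted p = 0.00597 and 0.477). With the offset 5 of 7 were lower, with a median of -1.03. ATOX1, COMMD1 and ATP7B stayed lower (-0.52, -1.03 and -1.77, adjusted p = 0.0172, 0.00728 and 0.0155). SLC31A1 and ATP7A were then lower too (-1.23 and -1.11, adjusted p = 0.000734 and 0.00051).

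Of 8 transcription factors linked to metallothionein genes, USF1 was higher in 3D than in 2D (log2 fold change 0.99, adjusted p = 0.0122) and HIF1A, the hypoxia factor, lower (-1.62, adjusted p = 0.0321). With the offset these were 0.38 and -0.58, and 4 of the 8 were called higher (USF1, ARNT, STAT3 and SP1) and 1 lower. In animal against 2D 0 of the 8 were called in the fit without the offset. With it 3 were lower, HSF1 at -0.95, HIF1A at -0.64 and the glucocorticoid receptor NR3C1 at -0.56 (adjusted p = 0.00335, 0.0172 and 0.0445). Against 3D, HSF1, the main heat shock factor, USF1 and ARNT were lower in the animal libraries (log2 fold changes -1.77, -0.99 and -0.6) and HIF1A higher (1.35). With the offset HSF1 was at -0.55, USF1 at -0.58, ARNT at -1.02 and HIF1A at -0.06, the last no longer called (adjusted p = 0.786). With heat, 0 genes of the importer, exporter, copper and factor lists were called in edgeR, and with the offset SLC39A8 and ATP7B were lower (-1.49 and -1.83, adjusted p = 0.0276 and 0.0253). Genes named only for a call with the offset were chosen after their values were seen. NFE2L2, the NRF2 gene, was called in none of the 4 comparisons, with or without the offset.

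The genes whose levels ran most like the metallothioneins were sought by correlation with the mean log2 CPM of MT2A, MT1X and MT1G over the 15 libraries, among 8567 genes of at least 10 CPM. SMIM22, FA2H, HIST1H1C, DYNLT1, FXYD3 and DYNLRB1 led, with Pearson's r of 0.913, 0.912, 0.911, 0.91, 0.906 and 0.886. Without 3D replicates 1 and 2 and heat replicate 1, FA2H, H1F0, PTPRR, FXYD3, CA12 and CCDC57 led over the 12 other libraries (r of 0.97, 0.961, 0.961, 0.96, 0.96 and 0.953). FA2H, a fatty acid hydroxylase, and FXYD3, a regulator of the sodium pump, were in both lists. The libraries share their groups and, in part, their composition, so these values only describe the pattern.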

How the data were processed

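RNA sequencing of MHCC-97H cells gave 15 libraries in 5 groups of 3. Per the labels' protocols, mRNA was fragmented, primed with random hexamers and sequenced as single-end reads of 50 bases on DNA nanoballs, with no step that marks the strand. The submitters' processing notes name HISAT2 and hg19. The counting program, annotation, handling of reads with several matches and removal of host reads are not given in the sources used here. The table deposited by the authors holds raw counts of reads per gene symbol, and 27 rows carry a calendar date in place of a symbol. Intervals and floors (3 counts) cover counting error only, since PCR copies cannot be told from separate molecules.

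The main test was edgeR 4.0.16 (R 4.3.3) with filterByExpr by group, TMM scaling and robust quasi-likelihood. Separate models covered the first experiment (9 libraries) and the second (6 libraries). Calls required an adjusted p (Benjamini-Hochberg, all genes tested) below 0.05. Unless another tool is named, adjusted p-values are edgeR's. The SE of a log2 fold change is its size divided by the square root of the F statistic. Alternatives were DESeq2 1.42.0, median-ratio scaling, other filters (none, or 10 reads in every library of a group), the replicate block, other sets of libraries and an offset that takes out library-specific trends over length and GC content (5 spline degrees of freedom each) of the principal GENCODE 29 transcript, which 99.1% of tested genes had. The same transcripts gave lengths and shared windows. The fits were tested on simulated counts with a capped spread and no added trend over GC content or length. That check does not cover libraries that follow GC content. The text names all 8 members and up to 4 called genes per list and comparison, by adjusted p. Genes of similar pattern were sought without antisense, pseudogene-like and LOC symbols. MT1L and 1 hepatocyte marker were not analysed here. Members and lists were chosen with earlier results of these data known.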

Additional observations from a re-analysis of the deposited data

How the results depend on the processing

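Of 285 log2 fold changes of the 5 tested members under the alternatives, 214 kept their direction and their side of the threshold, 39 lost the call, 12 gained one and 20 changed sign. This tally includes the fits that keep 3D replicate 3 alone, whose calls have no spread between 3D libraries behind them. Median-ratio scaling and the stricter filter kept direction and side for all 20 values each. The offset for GC content and length moved the median of all genes to -0.11 in animal against 2D and -0.07 in animal against 3D, against 0.03 and 0.1 without it, and the log2 fold changes with it are to be set against those medians. Members called higher in 3D against 2D numbered 1 in place of 3 with the replicate block, all 15 libraries, the offset or only the 2 groups, and 1 to 3 on leaving out 1 library. Members called lower there numbered 0 in place of 1 with the block or only the 2 groups, and 0 to 2 on leaving out 1. In animal against 2D, 0 were higher in place of 1 with the block, with all 15 libraries and on leaving out any 1 library, and 4 with only the 2 groups, while 1 was lower in place of 0 with the offset or only the 2 groups. In animal against 3D, 2 were higher in place of 1 with the offset, and 1 to 2 on leaving out 1. Lower calls there numbered 0 in place of 1 with the block, all 15 libraries or only the 2 groups, and 0 to 2 on leaving out 1. With heat, 1 was higher in place of 0 in DESeq2, with all 15 libraries and with the offset, and 0 to 1 on leaving out 1. The cause was not tested, but the spread of the 3D libraries does not enter the fit of only the 2 groups in animal against 2D.

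Signs that changed were as follows. In 3D against 2D the offset gave -0.12 for MT2A and 0.09 for SLC30A1, which was also 0.09 on dropping 3D replicates 1 and 2. For animal against 3D, MT2A was 1.07 with the offset, 0.97 with 3D replicates 1 and 2 dropped and 0.55 with 3D replicate 1 dropped. SLC30A1 was -1.05, -0.81 and -0.05 under the same 3 settings and -0.21 without 3D replicate 2, and MT1G was 0.37 without 3D replicates 1 and 2. With heat, MT1X was -0.01 with no filter, -0.67 with the block, -1.07 with the offset, -0.05 without control replicate 3 and -1.33 without heat replicate 1. MT1G was -0.42 with the block, -0.8 with the offset and -1.41 without heat replicate 1, and SLC30A1 was -0.16 without heat replicate 3. The share of all genes called ranged over the alternatives from 13.6 to 72.2% in 3D against 2D, against 32.9% in the reported fit, from 4.94 to 57.4% against 12% in animal against 2D, from 21.6 to 77% against 41.5% in animal against 3D, and from 0 to 28.8% against 0.0238% with heat. The labels do not say whether libraries with the same replicate number belong together. Their deviations from the group means correlated at -0.225 to 0.14, which does not decide it. The block ended the calls of MT1G, MT2A and MTF1 in 3D against 2D and of MT1X in both animal comparisons. The fits that keep 3D replicate 3 by itself take its spread from the animal and 2D libraries. On leaving out 1 library at a time, the log2 fold changes ran from -0.7 to 0.55 for MT2A and from -0.21 to 1.15 for SLC30A1 in animal against 3D, and with heat from -1.41 to 1.03 for MT1G, from -1.33 to 0.54 for MT1X and from -0.16 to 0.59 for SLC30A1.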
